A study of Mus musculus with 5 samples.

Results

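The small leucine-rich proteoglycans (SLRPs) were followed as 10 genes, Dcn, Bgn, Fmod, Lum, Prelp, Ogn, Omd, Epyc, Kera and Chad, in single cells from the growth plates of 5 mouse pups. The genes were taken by name from the gene lists of the 5 libraries, and all 10 were present among the 29818 genes with a UMI in any pup. They are members of the family and were chosen with earlier results of these data known. Another 8 genes of the family were read beside them. The pups were littermates labelled C57BL/6J, although the Cre line came from a mixed B6/SJL background, and cells of the distal femur and proximal tibia of each pup made 1 BD Rhapsody library. 2 pups were labelled WT (pups 1 and 2) and 3 were labelled mutant (pups 3, 4 and 5), that is, carriers of a conditional Trpv4 p.R594H knock-in switched on by Col2a1-Cre. Col2a1-Cre is driven by a promoter of chondrocytes and their precursors, so the cells of other types in a mutant pup need not carry the recombined allele. The labels call the cells chondrocytes, and the dissection and a first digestion were meant to remove tendon, ligament and muscle, but tendon or ligament-like cells made up 7.01% to 14.6% of each library and fibroblast-like cells 2.19% to 8.79%. The sample labels give postnatal day 5 and the series description postnatal day 3. Trpv4 itself ran at 160 and 102 CPM (UMIs per 1000000 UMIs of a set of cells) in the WT pups and at 90.3, 148 and 175 in the mutant pups, and a UMI does not show which allele it came from.

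SLRPs are secreted proteins with a core of leucine-rich repeats that bind to collagen fibrils and set their diameter and spacing. Most carry sugar chains, which are chondroitin or dermatan sulfate on decorin (Dcn), biglycan (Bgn) and epiphycan (Epyc), and keratan sulfate on fibromodulin (Fmod), lumican (Lum), keratocan (Kera) and osteomodulin (Omd). In skeletal tissue they are known from cartilage, tendon, ligament and bone, where several also bind growth factors such as TGF-beta. Chondroadherin (Chad) lacks such a chain and binds both collagen and integrins.

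After filtering, 82516 of 84382 cells remained, with a median of 9261 and 8521 UMIs per cell in the WT pups and of 6657, 6000 and 7016 in the mutant pups. Cells were clustered without the 10 genes, the other genes of the family and the genes that build sugar chains, and clusters were named from marker lists, as "X-like". Cells whose markers did not settle a name were called by their leading genes. A group of 3962 cells led by H2ac6 and Sfrp5 scored highest for the proliferating chondrocyte markers, and a group of 2976 cells led by Igfbp3 and Col8a1 for the perichondrial ones, but both names were withheld because a marker of resting chondrocytes was among their leading genes. The resting chondrocyte-like cells were led in part by immediate early genes (Fos, Egr1, Jun) and metallothionein genes (Mt1, Mt2). Their name came from a score against other chondrocyte clusters, with 5 of the 7 resting markers counted as detected in each of their clusters. Against all other cells, Ucma (6622 CPM against 1987), Pthlh (14.5 against 7.78) and Clec3a (90.2 against 59.9) were higher. Pthlh was read in only 6.94% of the resting chondrocyte-like cells. The other 4 of the 7 resting markers were lower in these cells than in all other cells, namely Sfrp5 (56.2 against 60.3), Wif1 (366 against 498), Spon1 (5.58 against 10.2) and Gas1 (502 against 525). Of the 3969 hypertrophic chondrocyte-like cells, 3628 were in a cluster led by Panx3. A Col10a1 UMI was read in 44.4% of this group, and Mmp13 was lower in it than in other cells (40.9 against 59.5 CPM). The other markers of the hypertrophic list were higher. Xist was read in 89.8% and 88.4% of the cells of mutants 3 and 4 and in at most 0.174% of the cells of the other pups. The Y-linked Ddx3y was at 167 and 190 CPM in the WT pups and 201 in mutant 5, and at 0.934 and 0.672 in mutants 3 and 4. Both WT pups and mutant 5 thus read as male and mutants 3 and 4 as female, so sex was not balanced between the genotype labels. Any pair of pups shared 3 to 7 cell barcodes.

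Most of the genes lie in 3 groups of neighbours. On chromosome 10 (GRCm38, GENCODE M21) Dcn (97479609 to 97518143), Lum (97565128 to 97572703), Kera (97606879 to 97613692) and Epyc (97644068 to 97682454) follow each other on the plus strand within 202.8 kb. On chromosome 13 the family members Ecm2 and Aspn are followed by Omd (49582462 to 49592822) and Ogn (49608046 to 49624501), all on the plus strand within 119.7 kb. On chromosome 1 Prelp (133910304 to 133921414, minus strand) lies 2304 bases from Optc, and Fmod (134037254 to 134048277, plus strand) lies 115839 bases beyond Prelp. Bgn (X, 73483602 to 73495933) and Chad (11, 94565047 to 94569127) have no neighbour of the family close by. RefSeq promoters (GRCm38.p6, the 250 bases before the start) were found for 8 of the 10 genes. 4 of them are shown: those of Omd and Ogn, which are neighbours highest in different cells, and those of the cartilage genes Epyc and Chad. Capitals mark a SOX core (ACAAAG or ACAATG), an E-box (CANNTG), a TATA box (TATAAA) or a RUNX core (TGTGGT), searched on both strands.
Omd, chr13:49582212-49582461, plus strand: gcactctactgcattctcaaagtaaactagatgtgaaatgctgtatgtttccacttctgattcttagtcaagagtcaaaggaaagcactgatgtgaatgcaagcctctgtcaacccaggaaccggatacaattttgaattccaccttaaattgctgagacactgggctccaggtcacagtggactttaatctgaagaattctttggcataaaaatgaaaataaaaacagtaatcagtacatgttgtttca
Ogn, chr13:49607765-49608014, plus strand: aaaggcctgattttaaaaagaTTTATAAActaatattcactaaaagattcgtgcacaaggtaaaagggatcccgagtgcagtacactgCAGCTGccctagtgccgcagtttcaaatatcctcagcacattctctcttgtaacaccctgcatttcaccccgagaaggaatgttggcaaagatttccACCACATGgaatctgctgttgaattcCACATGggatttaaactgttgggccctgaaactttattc
Epyc, chr10:97643818-97644067, plus strand: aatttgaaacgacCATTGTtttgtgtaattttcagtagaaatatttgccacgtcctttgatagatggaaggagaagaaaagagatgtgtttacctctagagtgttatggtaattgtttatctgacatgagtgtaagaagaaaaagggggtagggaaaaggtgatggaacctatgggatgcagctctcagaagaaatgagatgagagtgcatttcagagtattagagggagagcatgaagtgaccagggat
Chad, chr11:94564797-94565046, plus strand: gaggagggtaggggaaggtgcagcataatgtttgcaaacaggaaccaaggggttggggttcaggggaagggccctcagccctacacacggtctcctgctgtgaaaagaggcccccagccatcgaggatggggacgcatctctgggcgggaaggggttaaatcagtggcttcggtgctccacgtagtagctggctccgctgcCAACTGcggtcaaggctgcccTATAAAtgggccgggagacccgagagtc
In the Omd promoter none of the 4 motifs occurred. The Ogn promoter held 3 E-boxes, which start at -162, -63 and -39 from the RefSeq start. That start lies upstream of the GENCODE start of Ogn given above. The Ogn promoter also held a TATA box read on both strands at -229 and -227, and a RUNX core at -65 that overlaps the second E-box. The Epyc promoter shown held a SOX core at -237, and Chad held an E-box at -49 and a TATA box at -28. A second RefSeq promoter of Epyc (chr10:97646853-97647102), not shown, held 3 SOX cores and 2 E-boxes. Of the 32851 promoters of the table, 25.2% held a SOX core, 66.2% an E-box, 12.4% a TATA box and 14% a RUNX core, so these matches describe the letters of the window and name no factor.

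Levels are given as CPM of a group of cells, and as the mean over 5 pups. A UMI counts a captured molecule once, so no gene length enters. Highest and lowest refer to the 25 groups with at least 20 cells in every pup, which leaves out the osteoblast-like cells. Together the 10 genes took 1.08% ± 0.105 (SD, n = 5) of all UMIs of a pup. Their sum was 1.58% of the UMIs of tendon or ligament-like cells and 1.51% of those of the Igfbp3/Col8a1-led cells. It was 1.37% in articular and 1.29% in resting chondrocyte-like cells. In the H2ac6/Sfrp5-led chondrocytes it was 0.608%, in hypertrophic chondrocyte-like cells 0.666% and in osteoblast-like cells 0.405%. The sum was thus lower in every pup in the latter 3 groups (0.331% to 0.821%) than in the former 4 (1.2% to 1.72%). Bgn and Fmod alone held 69.0% of the UMIs of the 10 genes over all cells. By group they held from 45.4% (hypertrophic chondrocyte-like) to 82.9% (articular chondrocyte-like). The order of the sum therefore does not hold for each gene, and Prelp and Epyc were highest in hypertrophic chondrocyte-like cells.

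**Figure D1:**
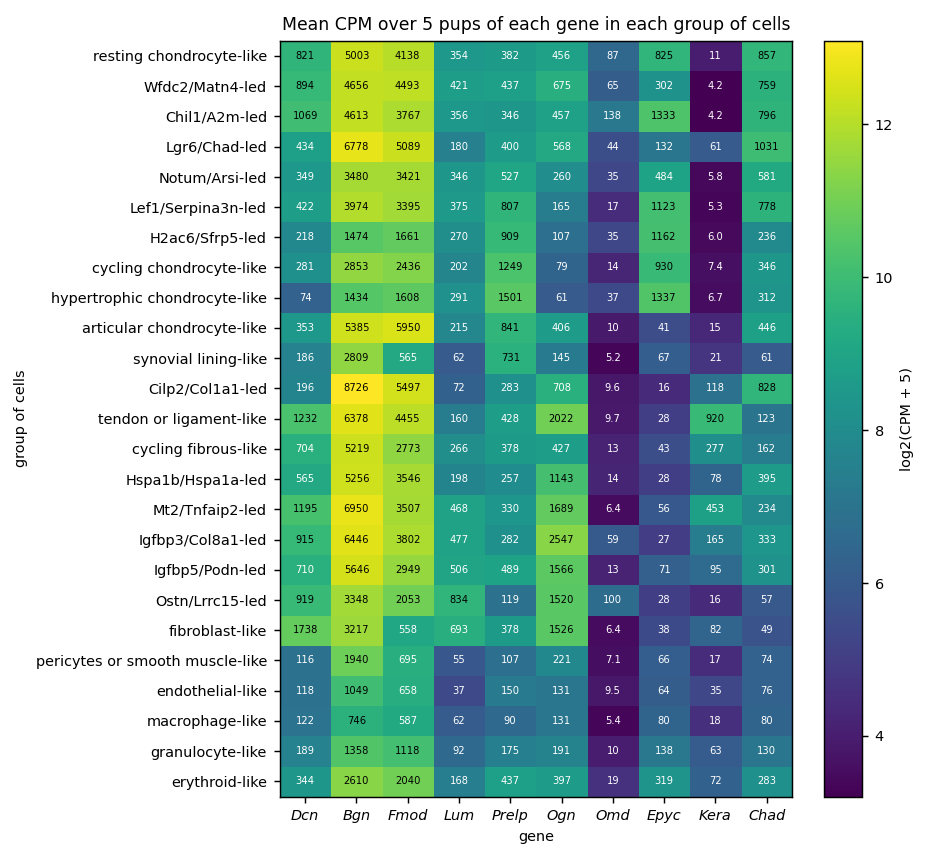
Mean CPM over 5 pups of each of the 10 genes (columns) in 25 groups of cells with at least 20 cells in every pup (rows); colour is log2(CPM + 5) and the printed number is the mean CPM. Kera stands out in the tendon or ligament-like cells (mean 919.7 CPM, against 4.24 to 453 in the other groups) and Epyc in cartilage groups. Dcn has its highest mean in the fibroblast-like cells, with a range that overlaps that of the tendon or ligament-like cells.

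Decorin and biglycan, the best known SLRPs with chondroitin or dermatan sulfate chains, differed in where they were high. Dcn was highest in fibroblast-like cells (1738 CPM, 1495 to 2029 over the pups), followed by tendon or ligament-like cells (1232, 802 to 1543), and the ranges of these neighbours overlapped. Among the latter, a cluster led by Kera and Tnmd was at 1788 (1230 to 2369) and one led by Cilp and Thbs4 at 342 (259 to 437). It was lowest in hypertrophic chondrocyte-like cells, at 82 and 74.2 in the WT pups and at 67.3, 74.5 and 73.7 in the mutant pups. In macrophage-like cells, which are not a known main source of decorin, Dcn was read at 122 CPM (92.5 to 151). The reads of macrophage-like cells serve here as a background of free RNA, and no order is read between them and the hypertrophic chondrocyte-like cells. Other blood cells read higher for Dcn, at 344 CPM in erythroid-like and 189 in granulocyte-like cells, so this is a low choice of background. Bgn was highest in the Cilp2/Col1a1-led cells (8726 CPM, 8147 to 9808), above the next group in every pup and with no overlap of ranges. In hypertrophic chondrocyte-like cells Bgn was at 1883 and 1053 in the WT pups and at 1233, 1442 and 1561 in the mutant pups, and macrophage-like cells were lowest at 746 (548 to 975). The Cilp2/Col1a1-led cells, at the top for Bgn, were low for Dcn (196, 143 to 249).

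Fibromodulin, a keratan sulfate proteoglycan that binds collagen I and II fibrils, was highest in articular chondrocyte-like cells. Fmod was there at 7329 and 4917 in the WT pups and at 5351, 6244 and 5911 in the mutant pups, and the range overlapped that of the Cilp2/Col1a1-led cells (5222 to 5872). In fibroblast-like cells Fmod was at 558 (322 to 833), no higher than in macrophage-like cells (587, 396 to 860). Dcn and Fmod were thus at opposite ends in the fibroblast-like cells. Lumican, which regulates fibrils in cornea and connective tissue, was highest in the Ostn/Lrrc15-led cells (834, 683 to 883). In these cells Lum was at 683 and 852 in the WT pups and at 869, 881 and 883 in the mutant pups. Fibroblast-like cells followed at 693 (542 to 794), which overlapped, and lay above the third group in every pup. Prelp, a basic SLRP of cartilage that anchors collagen to heparan sulfate, was highest in hypertrophic chondrocyte-like cells, at 1796 and 1534 in the WT pups and at 1146, 1364 and 1664 in the mutant pups. This range overlapped that of the cycling chondrocytes (1249, 1117 to 1448), which were lower in 4 of 5 pups. The high level was that of the Panx3-led cluster (1321 to 1887), and the smaller Col10a1-led cluster was at 196 to 529.9. The cycling chondrocytes were not uniform either. Over the cells of all pups, their cluster led by Ccnb1 and Pbk was at 1802, against 1625 in the Panx3-led cluster. Their cluster led by Top2a and Prc1 was at 614. Macrophage-like cells had the lowest Prelp of 25 groups (90.3, 51.6 to 124).

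Keratocan, a keratan sulfate proteoglycan of the corneal stroma that is also known from tendon, had the narrowest distribution by UMIs. Tendon or ligament-like cells were 10.7% of the cells and held 8.28% of all UMIs but 69.7% of the 88522 Kera UMIs. Kera was there at 952 and 982 CPM in the WT pups and at 707, 1482 and 476 in the mutant pups, which is a wide spread (SD 375). In 5 groups of chondrocytes its mean was 4.24 to 5.99 CPM, against 18 (4.46 to 43) in macrophage-like cells. The tendon or ligament-like cells were themselves not uniform. The cluster led by Kera, Tnmd and Mfap4 was at 1545 and 1679 in the WT pups and at 1232, 1961 and 838 in the mutant pups. The cluster led by Cilp and Thbs4 was at 72.3 and 86.9 in the WT pups and at 72, 118 and 31 in the mutant pups. The Kera/Tnmd-led cluster made up 67.5% of these cells in mutant 4 and 51.4% to 56.6% in the other pups. A smaller cluster of 532 cells, led by Chodl and Cilp, lay between them at 466 and 291 in the WT pups and at 207, 669 and 70.7 in the mutant pups, and its range overlapped that of the Cilp/Thbs4-led cluster. The Kera/Tnmd-led and the Cilp/Thbs4-led clusters did not overlap, in any pup, for Kera, and they stood in the opposite order for Prelp (88.1 to 332 against 621 to 992). Ogn (2162 to 3289 against 554 to 871) and Dcn (1229.8 to 2369 against 259 to 437) followed the order of Kera. Since the clusters were cut from the same cells, these differences are given without a test.

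Osteomodulin, known for binding mineral and cells in bone, was the gene with the fewest UMIs (27583). Omd was highest in the Chil1/A2m-led chondrocytes, at 229 and 148 in the WT pups and at 86.8, 101 and 127 in the mutant pups. The Ostn/Lrrc15-led cells (100.1, 76.4 to 155) and the resting chondrocyte-like cells (87.1, 60.1 to 132) came next, and each range overlapped the one before it. In osteoblast-like cells, marked by Ibsp and Dmp1, Omd was at 116 and 109 in the WT pups and at 41, 46.7 and 29.2 in the mutant pups. This group held 267 cells in all and only 14 and 17 cells in WT 1 and mutant 5, so it entered no genotype test.

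Osteoglycin (Ogn) and epiphycan (Epyc), SLRPs with fewer repeats than decorin, were high in different cells. Of the groups, Ogn was highest in the Igfbp3/Col8a1-led cells, at 2060.1 and 2544 in the WT pups and at 2874, 2632 and 2624 in the mutant pups. Tendon or ligament-like cells followed (2022, 1495 to 2694), lower in 4 of 5 pups and with overlapping ranges. That group pools clusters of unlike level. Its Chodl/Cilp-led cluster was at 2586 to 2977, above the Igfbp3/Col8a1-led cells in every pup. Its Kera/Tnmd-led cluster was at 2162 to 3289 and its Cilp/Thbs4-led cluster at 554 to 871. Hypertrophic chondrocyte-like cells were the lowest (61.1, 51.4 to 78.7), below the 131 of macrophage-like cells. Epyc, a proteoglycan of epiphyseal and growth plate cartilage, was highest in hypertrophic chondrocyte-like cells, at 1596 and 1455 in the WT pups and at 1108, 1187 and 1341 in the mutant pups. The Chil1/A2m-led chondrocytes were at almost the same level (1333, 1026 to 1622), and 2 of 5 pups were higher in the first group. In articular chondrocyte-like cells Epyc was at 40.4 and 45.1 in the WT pups and at 33.8, 32 and 54.3 in the mutant pups, below the 79.9 of macrophage-like cells. Within the hypertrophic chondrocyte-like cells the cluster led by Panx3 had 1196 to 1640.2 CPM of Epyc and 1321 to 1887 of Prelp. The smaller cluster led by Col10a1, the collagen of hypertrophic cartilage, had 625 to 976 of Epyc and 196 to 529.9 of Prelp. Neither gene overlapped between these clusters in any pair of pups, and Chad did overlap (247 to 344 against 334 to 448).

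Chondroadherin was highest in the Lgr6/Chad-led chondrocytes, at 1107 and 1081 in the WT pups and at 934, 913 and 1117 in the mutant pups. This range did not overlap that of the resting chondrocyte-like cells, at 857 (769 to 906). It did overlap that of the Cilp2/Col1a1-led cells, the third group (593 to 1119.8), which were higher in WT 1. Chad itself was among the leading genes of that cluster although it was not used to make it. Of the 25 groups, fibroblast-like cells had the lowest Chad (48.6, 23.1 to 79.2), and the osteoblast-like cells outside them were at 46.7 (16.3 to 98.5).

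**Figure D2:**
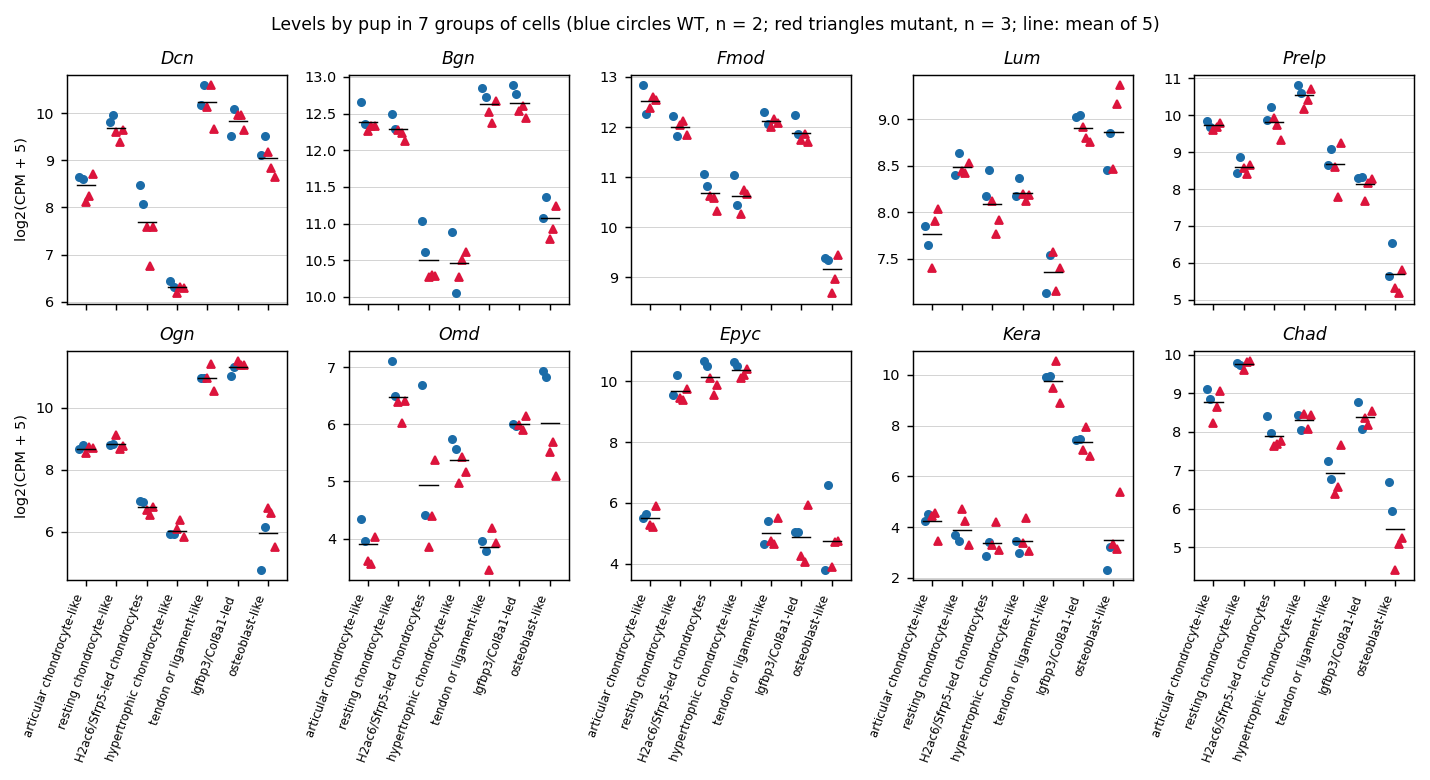
log2(CPM + 5) of each gene in 7 groups of cells, 1 point per pup (WT, n = 2; mutant, n = 3), with a line at the mean of 5 pups. The step between groups is larger than the spread of the pups for Kera, Ogn and Epyc, and WT and mutant points overlap in most panels.

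Steps between groups were tested on UMIs summed per pup and group with edgeR's quasi-likelihood test, with the pup as a block and p-values adjusted over all genes. Cells were grouped by other genes of the same cells. These p-values thus weigh a step against how much it varied over the 5 pups, and do not show that a group exists. Fitted log2 differences use TMM scaling. Plain CPM ratios lay -0.21 to 0.17 (log2) from the fitted differences in the median of all genes, and no member past the threshold had another sign in CPM. The 10 genes gave 70 tests in 7 contrasts, and 51 passed at an adjusted p of 0.05. In 14 of these 51 the lower level, and in 3 of them both levels, lay below the mean of macrophage-like cells. Such a level is not told apart from background here, so the size of these 14 steps is not taken as a measured fold. This limit is in CPM and takes no account of depth. Macrophage-like clusters held medians of 5421 to 8982 UMIs per cell, the H2ac6/Sfrp5-led cells 14229.5 and the osteoblast-like cells 15042. In the hypertrophic clusters the medians were 22319.5 and 28590. A level below the limit in these deeper cells is thus not shown to be free RNA. The count of 14 also depends on the choice of macrophage-like cells. Erythroid-like cells read higher, for example Dcn (344 CPM), Bgn (2610) and Fmod (2040). The H2ac6/Sfrp5-led cells were below these levels for Dcn (218), Bgn (1474) and Fmod (1661), although above the macrophage-like ones.

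From resting to articular chondrocyte-like cells, 7 of the 10 genes differed, 2 higher and 5 lower in the articular cells, while 53.8% of all genes tested did (25.4% higher and 28.3% lower). The largest step was in Epyc (log2 difference -4.49 ± 0.12 SE, adjusted p = 4.36e-07), which in the articular cells was below the macrophage-like level, followed by Omd (-3.26 ± 0.08, adjusted p = 2.57e-13). Dcn (-1.39 ± 0.09), Chad (-1.14 ± 0.13) and Lum (-0.90 ± 0.13) were lower too. Prelp (0.98 ± 0.10) and Fmod (0.35 ± 0.06) were higher in the articular cells, in 5 of 5 pups. Bgn (-0.06 ± 0.04), Ogn (-0.33 ± 0.11) and Kera (0.36 ± 0.29) did not pass the test.

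The H2ac6/Sfrp5-led chondrocytes had less of most members than the resting chondrocyte-like cells. 9 of the 10 genes differed, 8 of them higher and 1 lower in the resting cells, against 55.3% of all genes (27.3% higher and 28% lower). Ogn (2.27 ± 0.09), Dcn (2.18 ± 0.19), Chad (2.07 ± 0.12), Bgn (1.97 ± 0.09), Omd (1.84 ± 0.40) and Fmod (1.51 ± 0.10) were higher in resting chondrocyte-like cells. Ogn in the H2ac6/Sfrp5-led cells (107 CPM) was below the macrophage-like 131. Lum (0.59 ± 0.09) and Kera (1.02 ± 0.34, adjusted p = 0.037) were smaller or less certain steps. Kera was at 10.8 and 5.99 CPM in these groups, both below the 18 of macrophage-like cells, and it lost its call without WT 1, mutant 3 or mutant 5 (0.71 to 1.10, adjusted p = 0.067 to 0.089). Prelp went the other way (-1.06 ± 0.12, adjusted p = 9.91e-05), and Epyc did not pass (-0.29 ± 0.16). The group rests on a single cluster. With another seed for the clustering, the proliferating list picked another cluster and the resting list 12797 cells, of which 36.3% were in the group used here. Dcn (-0.70), Lum (-0.41), Ogn (-0.03), Omd (-0.95) and Prelp (0.25) had the opposite sign between those groups.

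Between the H2ac6/Sfrp5-led and the hypertrophic chondrocyte-like cells 6 of the 10 genes differed, 2 higher and 4 lower in the former, against 54.5% of all genes (27.8% higher and 26.7% lower). Dcn (1.36 ± 0.25) and Ogn (0.73 ± 0.15) passed with higher values in the H2ac6/Sfrp5-led cells. For Ogn both levels (107 and 61.1 CPM) were below the 131 of macrophage-like cells, and for Dcn the hypertrophic level (74.3) was below their 122. Prelp (-0.83 ± 0.17), Chad (-0.52 ± 0.14), Epyc (-0.35 ± 0.12) and Lum (-0.22 ± 0.07) were lower. The calls of Lum and Epyc were lost without mutant 3, mutant 4 or mutant 5 (Lum -0.16 to -0.23, Epyc -0.24 to -0.39). With no filter on low counts 3 of the 10 genes passed. With the 2 groups drawn from other clusterings all 4 of the lower genes turned: at a resolution of 2.5 Prelp was at 0.25, Epyc at 0.34, Lum at 0.12 and Chad at 0.42.

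Tendon or ligament-like cells were set against 2 groups. Against articular chondrocyte-like cells 8 of the 10 genes differed, 4 in each direction, with 60.6% of all genes (31.2% higher and 29.4% lower). Kera (6.17 ± 0.16, adjusted p = 2.05e-07), Ogn (2.50 ± 0.15), Dcn (1.99 ± 0.27) and Bgn (0.45 ± 0.05) were higher in the tendon or ligament-like cells. Chad (-1.70 ± 0.08), Prelp (-0.84 ± 0.21), Epyc (-0.38 ± 0.11) and Fmod (-0.20 ± 0.06) were lower. Both levels of Epyc (28.1 and 41.1 CPM) were below the macrophage-like 79.9, and so was Kera in the articular cells (14.7 against 18). Not all of these calls held when a pup was left out. The Fmod call was lost without WT 1 or mutant 5 (-0.15 and -0.17), and the Prelp call without mutant 3 (-0.87, adjusted p = 0.052). At a resolution of 2.5 Fmod (0.03) and Epyc (0.55) turned. Against the Igfbp3/Col8a1-led cells 6 of the 10 genes differed, 3 in each direction, with 33.9% of all genes (17.4% higher and 16.5% lower). Kera (2.42 ± 0.07), Dcn (0.38 ± 0.11) and Fmod (0.22 ± 0.07) were higher in the tendon or ligament-like cells, and Omd (-2.64 ± 0.19), Lum (-1.61 ± 0.08) and Chad (-1.53 ± 0.18) were lower. The call of Dcn was lost without WT 1, WT 2 or mutant 4 (0.28 to 0.37), and that of Fmod without mutant 5 (0.17). Omd turned (0.21) when the 10 genes were allowed among the clustering features, and Chad (0.12) at a resolution of 0.8.

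The Igfbp3/Col8a1-led cells and the resting chondrocyte-like cells differed in 8 of the 10 genes, 4 in each direction, with 61.5% of all genes (29.7% higher and 31.7% lower). Kera (4.08 ± 0.37), Ogn (2.53 ± 0.07), Lum (0.47 ± 0.07) and Bgn (0.41 ± 0.06) were higher in the Igfbp3/Col8a1-led cells. Epyc (-5.02 ± 0.31), Chad (-1.34 ± 0.08), Omd (-0.47 ± 0.14) and Prelp (-0.40 ± 0.09) were lower, and the Omd call was lost without WT 2 (-0.44, adjusted p = 0.092). Epyc in the Igfbp3/Col8a1-led cells (27.4 CPM) and Kera in the resting cells (10.8) were below the macrophage-like levels of 79.9 and 18. At a resolution of 2.5 Bgn (-0.10) and Prelp (0.066) turned, and Lum did (-0.10) with the 10 genes among the clustering features. Osteoblast-like cells had 7 of the 10 genes lower and none higher than the Igfbp3/Col8a1-led cells, with 44.2% of all genes called (20.8% higher and 23.4% lower). Ogn (-5.23 ± 0.23), Kera (-4.42 ± 0.55), Chad (-3.05 ± 0.29), Fmod (-2.72 ± 0.15), Prelp (-2.45 ± 0.18), Bgn (-1.56 ± 0.14) and Dcn (-0.77 ± 0.14) were lower. In the osteoblast-like cells the levels of Ogn (65.1 CPM), Kera (9.95), Chad (46.7), Fmod (580) and Prelp (49.9) were below those of macrophage-like cells (131, 18, 80.2, 587 and 90.3), and are not told apart from background. Lum (-0.03 ± 0.18), Omd (0.13 ± 0.25) and Epyc (0.33 ± 0.53) did not pass. Kera had 0 of 223293 UMIs in the osteoblast-like cells of WT 1, which allows up to 13.4 CPM by counting error alone. Dcn turned (0.03) with the 10 genes among the clustering features, where the Igfbp3/Col8a1-led cells were replaced by others.

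**Figure D3:**
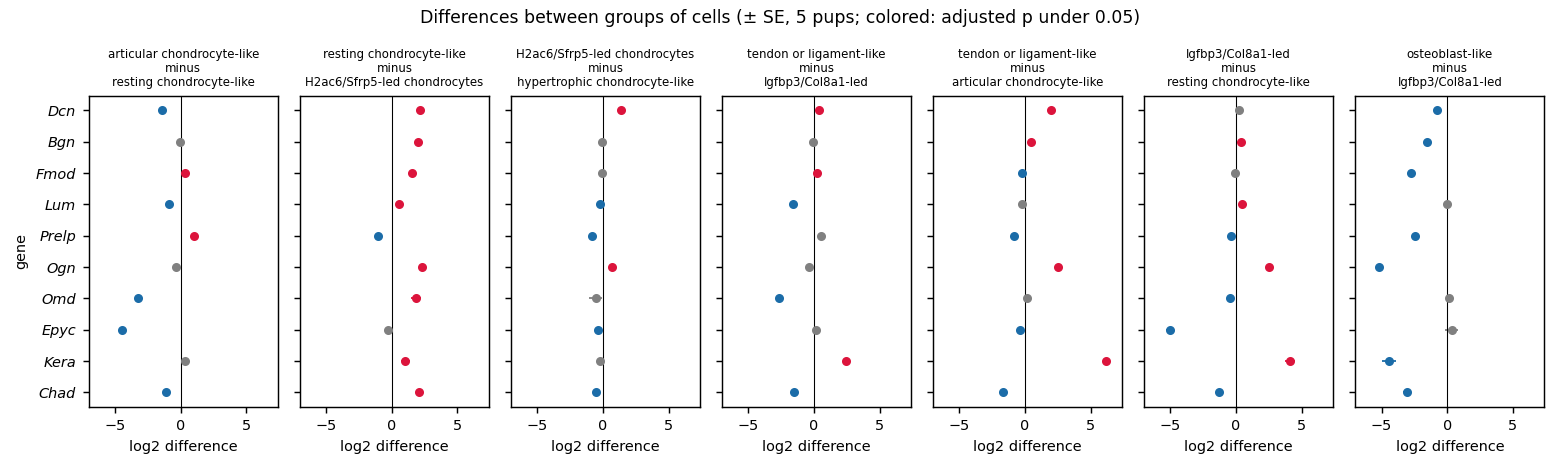
Fitted log2 difference with its SE for the 10 genes in the 7 contrasts between groups of cells; red and blue mark differences past an adjusted p of 0.05 (higher or lower in the first group) and grey the others. The largest steps are Kera in tendon or ligament-like minus articular chondrocyte-like cells (6.17) and Ogn in osteoblast-like minus Igfbp3/Col8a1-led cells (-5.23), and in both the lower level was below that of macrophage-like cells.

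Shares of cells with a UMI were compared after each cell was thinned to 2000 UMIs, because hypertrophic chondrocyte-like cells held a median of 22818 UMIs and articular chondrocyte-like cells of 5451. The shares are over the cells of all pups, and all groups named here kept their cells except for 1 resting chondrocyte-like cell. After thinning, 50.5% of tendon or ligament-like cells (median 6357 UMIs) had a Kera UMI, against 1.6% of macrophage-like cells (median 7587.5). Unthinned, the shares were 60.0% and 3.91%. At the same depth 79.2% of the tendon or ligament-like cells had an Ogn UMI. Epyc was read in 88.6% of hypertrophic chondrocyte-like cells, 70.2% of Chil1/A2m-led chondrocytes and 47.9% of resting chondrocyte-like cells, and in 3.68% of articular chondrocyte-like against 4.77% of macrophage-like cells. The articular share was thus at the background. Dcn was read in 84.9% of fibroblast-like, 65.9% of resting and 12.4% of hypertrophic chondrocyte-like cells (unthinned 94.4%, 86.6% and 62.8%), and in 9.3% of macrophage-like cells. The order of the first 3 groups was the same in both readings. The hypertrophic share was above the macrophage-like one although its CPM was below, so no order is read between them.

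Across the 46 clusters some of the genes went together and others did not. Pearson's r of log2(CPM + 5) was 0.87 for Bgn with Fmod, 0.79 for Dcn with Ogn, 0.78 for Fmod with Chad and 0.77 for Dcn with Bgn. Kera was negatively related to Epyc (-0.45), Chad (-0.23) and Omd (-0.22), and Ogn to Epyc (-0.36). These are descriptions over clusters that share libraries, depth and free RNA. Neighbours on a chromosome were not alike as a rule: Dcn and Lum had an r of 0.72 and Prelp and Fmod of 0.68, but Lum and Kera of -0.09, Kera and Epyc of -0.45 and Omd and Ogn of 0.20. The genes most like each member, among 8081 genes with at least 50 CPM in a cluster, were cartilage matrix genes for Epyc (Matn1, 0.97, and Matn3, 0.96) and tendon genes for Kera (Tnmd, 0.95, and Mfap4, 0.92). Ogn was closest to the microfibril genes Fbn2 (0.91) and Mfap2 (0.90), and Dcn to Mfap2 (0.83) and the gelatinase gene Mmp2 (0.81). Bgn (P3h3, 0.91, and Col16a1, 0.91) and Lum (Rcn3, 0.84, and Crtap, 0.83) were closest to collagens and genes of collagen processing. Fmod was closest to Ecrg4 (0.96) and Tceal3 (0.89), Prelp to Gdf10 (0.85) and Fam180a (0.84), Chad to Fgfrl1 (0.90) and Loxl3 (0.89), and Omd to Fkbp11 (0.73) and Smoc2 (0.71).

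**Figure D4:**
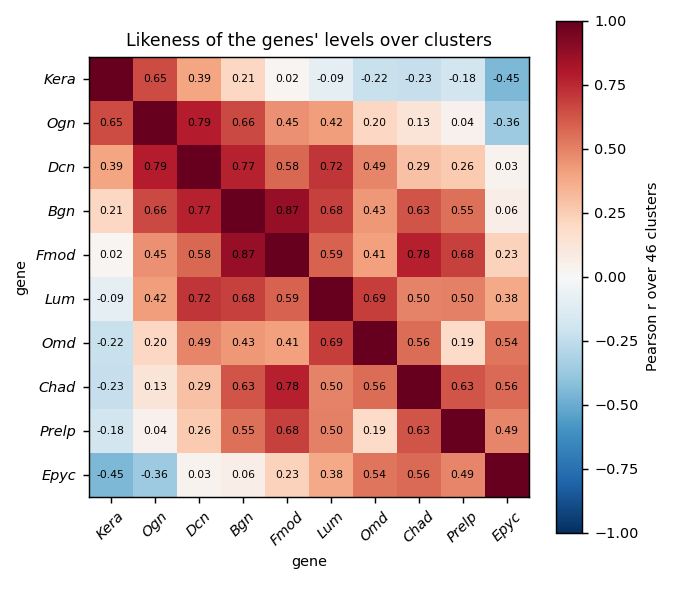
Pearson's r of log2(CPM + 5) between the 10 genes over 46 clusters; colour and the printed number give r. Bgn and Fmod are most alike (0.87), and Kera and Epyc least (-0.45).

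The comparison of the labels asked whether the mutant pups differed from the WT pups in these genes within a group of cells. By edgeR's quasi-likelihood test on sums per pup, none of the 10 genes passed in any of 7 comparisons (all cells and 6 groups), where 0% of all genes passed in each. Of the 70 tests of a member, 11 had an unadjusted p under 0.05, and DESeq2 called 1 of the 70. These 11 were all lower in the mutant pups and were in resting (2), H2ac6/Sfrp5-led (7) and hypertrophic (2) cells. Over all genes, an unadjusted p under 0.05 was seen for 5.56% in all cells, 6.31% in articular, 4.55% in resting, 7.53% in H2ac6/Sfrp5-led, 2.29% in hypertrophic, 3.94% in tendon or ligament-like and 8.75% in Igfbp3/Col8a1-led cells. Lower in the mutant pups at that threshold were 2.04% of genes in resting, 3.22% in H2ac6/Sfrp5-led and 1.33% in hypertrophic cells. In a simulation of the resting chondrocyte-like comparison, 193 of 200 genes changed by 1 on the log2 scale were recovered, and 185 of 200 in the tendon or ligament-like one, with 10.2% and 7.5% false calls. The other comparisons by label were not simulated. The changed genes were drawn only from those above a lower limit of mean CPM, which leaves out Kera in resting chondrocyte-like cells (10.8 CPM). All 200 changed at once, while no gene passed in the data. The simulation thus does not give the chance of finding a change in a single gene. Plain CPM ratios lay below the fitted differences by a median of 0.10 (log2) over all genes in all cells and in tendon or ligament-like cells. On that scale Fmod and Chad in all cells, Fmod, Lum and Chad in resting chondrocyte-like cells and Fmod, Epyc, Kera and Chad in tendon or ligament-like cells had the other sign.

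Overlap between the labels is read on plain CPM. Over all cells of a pup the values overlapped for 9 of the 10 genes. Epyc was at 627 and 667 CPM in the WT pups and at 413, 441 and 598 in the mutant pups, with every mutant pup below both WT pups, as for 19.8% of all genes tested (log2 difference -0.31 ± 0.18, adjusted p = 0.85). The cells removed by the filters on genes and mitochondrial UMIs had held 8.16% and 7.27% of the Epyc UMIs and 8.48% and 6.83% of the Prelp UMIs of the WT pups, against 0.819% to 1.36% in the mutant pups. Without the upper limit on genes, again none of the 10 genes passed. Kera over all cells was at 122 and 99.6 in the WT pups and at 91.6, 245 and 39.1 in the mutant pups. Mutant 4, the highest, also had the largest share of tendon or ligament-like cells (14.6%), and mutant 5, the lowest, had the smallest (7.01%). Within the tendon or ligament-like cells Kera was highest and lowest in the same pups, at 1482 and 476 CPM.

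The H2ac6/Sfrp5-led chondrocytes were where the labels stood furthest apart. 9 of the 10 genes were lower in the mutant pups (median log2 difference -0.48, against 0.00 over all genes), 7 had an unadjusted p under 0.05 (7.53% of all genes did) and in 7 the groups did not overlap. Every mutant pup was below both WT pups for 12.7% of all genes tested. Epyc was at 1606 and 1446 in the WT pups and at 1086, 744 and 929 in the mutant pups (-0.73 ± 0.16, adjusted p = 0.58). Dcn was at 352 and 262 in the WT pups and at 187, 103 and 186 in the mutant pups (-0.95 ± 0.27, adjusted p = 0.60). Both genes were thus lower in all 3 mutant pups than in either WT pup. Bgn was at 2087 and 1561 against 1227, 1257 and 1238 (-0.55 ± 0.14, adjusted p = 0.58). Chad was at 336 and 245 against 192, 199 and 211 (-0.53 ± 0.15, adjusted p = 0.58). With 1 pup left out at a time, Epyc ran from -0.87 to -0.60, Dcn from -1.18 to -0.69, Bgn from -0.78 to -0.30 and Chad from -0.77 to -0.26. The other genes without overlap were Fmod (-0.42 ± 0.14), Lum (-0.38 ± 0.14) and Ogn (-0.30 ± 0.12). Prelp (-0.35 ± 0.18), Omd (-1.45 ± 1.06) and Kera (0.78 ± 0.65) overlapped.

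These values depended on the processing. With no filter on low counts the same test called 220 genes in this group, among them Epyc (adjusted p = 1.83e-06), Dcn (5.60e-06), Bgn (0.00097), Chad (0.0065) and Fmod (0.031), and DESeq2 called 28 genes, among them Epyc (0.030). The mutant pups gave 2.09% to 5.96% of their cells to this group and the WT pups 5.55% and 8.24%. With another clustering seed the group picked by the same marker list shared 0% of these cells, and Fmod (0.16), Lum (0.05), Prelp (0.07), Ogn (0.25) and Chad (0.18) were then higher in the mutant pups, with none of the 10 genes called. At the higher resolution of 2.5, where the picked group kept 26% of these cells, Dcn (0.32), Bgn (0.09), Fmod (0.05), Ogn (0.62) and Chad (0.21) were higher as well.

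In resting chondrocyte-like cells Dcn (-0.28 ± 0.12), Bgn (-0.12 ± 0.12) and Omd (-0.53 ± 0.21) did not overlap between the labels, with every mutant pup below both WT pups, as for 16.4% of all genes. Omd was at 132 and 85.6 in the WT pups and at 78.4, 60.1 and 79.4 in the mutant pups, and it passed with no filter on low counts (adjusted p = 0.031). With 1 pup left out at a time its difference ran from -0.84 to -0.13. In hypertrophic chondrocyte-like cells the same held for Omd (-0.47 ± 0.17) and Epyc (-0.29 ± 0.11), with 13% of all genes below both WT pups. In articular chondrocyte-like cells (-0.18 ± 0.14) and in tendon or ligament-like cells (-0.16 ± 0.13) Bgn alone did not overlap, at 13.2% and 17.7% of all genes. In the Igfbp3/Col8a1-led cells Bgn (-0.25 ± 0.13), Lum (-0.16 ± 0.12) and Prelp (-0.22 ± 0.17) were below both WT pups (17.2% of genes) and Ogn (0.28 ± 0.13) above (9.88%). With 1 pup left out at a time, Prelp there ran from -0.32 to -0.053 and Ogn from 0.13 to 0.46. Without WT 1, Bgn was higher in the mutant pups in articular (0.08) and resting (0.02) chondrocyte-like cells. Several of these separations depended on the scale. On the TMM scale of the fitted differences Bgn overlapped in resting, articular and tendon or ligament-like cells, as did Omd in resting and Prelp in Igfbp3/Col8a1-led cells. On that scale Omd in Igfbp3/Col8a1-led cells and Lum over all cells were instead above both WT pups in every mutant pup. The 7 genes of the H2ac6/Sfrp5-led and the 2 of the hypertrophic cells were without overlap on both scales.

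Leaving out mutants 3 and 4, the pups with Xist reads, set the 2 WT pups against mutant 5 alone. The spread of mutant 5 was taken to be that of the WT pups. Kera was then called lower in tendon or ligament-like cells (-0.97 ± 0.12, adjusted p = 0.0015) and in Igfbp3/Col8a1-led cells (-0.71 ± 0.17, adjusted p = 0.0037), and Epyc was called higher in the latter (0.98 ± 0.21). Without mutant 5 Epyc was called lower in the latter (-1.01 ± 0.18, adjusted p = 0.028). Epyc thus had opposite signs with different mutant pups, at levels of 11.8 to 55.4 CPM, below the mean of 79.9 in macrophage-like cells. Whether the effect of the label differed between tendon or ligament-like and resting chondrocyte-like cells was tested as an interaction. None of the 10 genes passed, with 0% of all genes, and none had an unadjusted p under 0.05, with 1.96% of all genes. The interaction was largest for Kera (-0.94 ± 0.68) and Omd (0.66 ± 0.55).

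**Figure D5:**
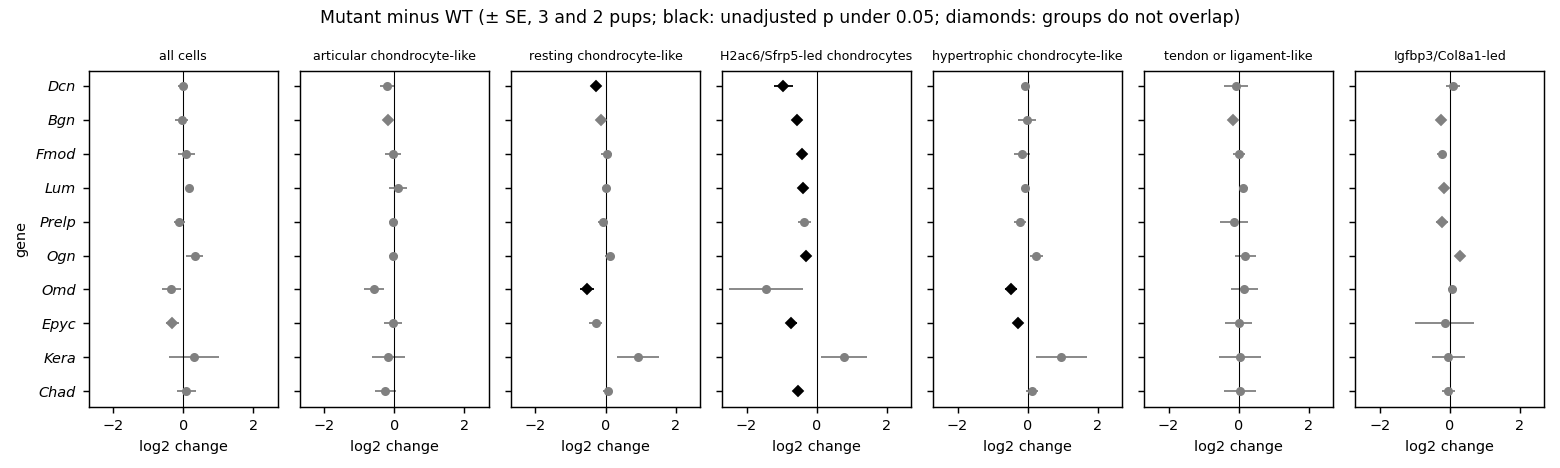
Fitted log2 difference, mutant minus WT, with its SE for the 10 genes over all cells and in 6 groups of cells (2 WT and 3 mutant pups); no difference passed an adjusted p of 0.05. In the H2ac6/Sfrp5-led chondrocytes 9 of the 10 values lie below 0.

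The 8 other genes of the family were read across the same cells. Asporin (Aspn), which inhibits TGF-beta and binds collagen, was highest in the Ostn/Lrrc15-led cells (3797 CPM, 3238 to 4351) and lowest in the Chil1/A2m-led chondrocytes (11.8). Ecm2 was highest in articular chondrocyte-like cells (951, 832 to 1064), next to the Cilp2/Col1a1-led cells (948, 874 to 1075). Chadl, a relative of chondroadherin, was highest in the Chil1/A2m-led chondrocytes (229, 202 to 242). Podn, Tsku, Podnl1, Optc and Nyx took at most 36.7 CPM over all cells of any pup. Of 5 to 6 of these genes tested in a contrast between groups, 3 to 5 passed, where 33.9% to 61.5% of all genes did. Aspn was higher in Igfbp3/Col8a1-led than in resting chondrocyte-like cells (5.83 ± 0.48) and in tendon or ligament-like than in articular chondrocyte-like cells (4.15 ± 0.13), and Chadl was lower in both (-4.66 ± 0.11 and -2.59 ± 0.15).

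Of 14 genes for fibril and lattice collagens and lysyl oxidase, the partners to which SLRPs bind, 7 to 14 passed in each contrast between groups, beside the same 33.9% to 61.5% of all genes. All 14 passed between tendon or ligament-like and articular chondrocyte-like cells, 11 higher and 3 lower in the former, led by Lox (4.12 ± 0.15) and Col1a1 (3.37 ± 0.07). In resting chondrocyte-like cells 12 were higher than in H2ac6/Sfrp5-led chondrocytes and none lower, led by Col5a2 (3.28 ± 0.07) and Col1a2 (3.11 ± 0.07). Bgn, Fmod and Dcn were higher in the same contrast. Between the Igfbp3/Col8a1-led and the resting chondrocyte-like cells Col2a1 (-5.06 ± 0.34) and Col11a2 (-4.98 ± 0.34) had the largest steps, and 11 of the 14 were higher. Unlike the SLRP genes, these 14 were not kept out of the clustering features. Col2a1, Col11a2, Col1a1 and Col3a1 were also among the markers used to name clusters. Their steps between groups can thus be set in part by how the groups were made.

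The 22 genes that attach, extend and sulfate the sugar chains gave 11 to 16 calls in a contrast, with both directions in each, again beside 33.9% to 61.5% of all genes. No difference between this list and the other genes was tested. Chst11, which sulfates chondroitin, was lower in tendon or ligament-like than in articular chondrocyte-like cells (-1.72 ± 0.09) and in Igfbp3/Col8a1-led than in resting chondrocyte-like cells (-3.17 ± 0.15). Xylt1, which starts the chain, was lower in the latter contrast (-2.36 ± 0.07), and Fam20b, a xylose kinase, in the former (-1.57 ± 0.05). Chst2, a sulfotransferase for N-acetylglucosamine, was higher in resting chondrocyte-like cells than in H2ac6/Sfrp5-led chondrocytes (2.94 ± 0.12) and than in articular chondrocyte-like cells, where the log2 difference was -1.61 ± 0.08. By genotype label none of the genes of these 3 lists passed in any of the 7 comparisons. Up to 4 of 21 chain genes (in H2ac6/Sfrp5-led chondrocytes) had an unadjusted p under 0.05, where 7.53% of all genes did.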

How the data were processed

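Single cells of the knee epiphyses of 5 pups (2 WT, 3 mutant) were measured with BD Rhapsody HT Express. Each deposited matrix holds whole UMI counts, without normalization, for genes by cells, and mm10 is the build in the submitters' processing notes. The aligner and its version are not given in the sources used here. Library totals were 117746735 to 183322632 UMIs.

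Cells with 200 to 6000 genes and at most 10% mitochondrial UMIs were kept, as in the study. Pearson residuals within each pup (3000 features) gave 50 principal components, 20 nearest neighbours and Leiden clusters at a resolution of 1.5 (scanpy 1.11.5, leidenalg 0.10.2), named from marker lists. The features left out the 10 genes, the other family genes, the chain genes, mitochondrial genes, Xist and Y-linked genes. The collagen and lysyl oxidase list was not left out. No doublets were removed, since Scrublet's automatic threshold called 0 cells.

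UMIs were summed per pup and group and tested with edgeR 4.0.16 (R 4.3.3; TMM, filterByExpr, robust quasi-likelihood, Benjamini-Hochberg over all genes, threshold 0.05). Contrasts between groups of cells had the pup as a block. Pups were the replicates. Levels are CPM. Correlations used log2(CPM + 5). Genotype groups needed 20 cells in each pup. On simulated data 180 to 199 of 200 genes changed by a log2 of 1 were recovered, with 7.5% to 10.2% false calls. These shares of false calls were above the adjusted threshold of 0.05. In the simulated contrast of articular minus resting cells 200 of 13019 genes changed, while 53.8% of genes passed in the data. Its rates thus do not carry over to the calls between groups. The changed genes were drawn only from those above a lower limit of mean CPM.

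All 10 genes were named in each comparison. Genes of the other lists were printed only in part. They were taken from the 2 largest changes past the threshold of a contrast or, for the other family genes, from all those past it. Likeness was named by the 2 highest r. The members and lists were chosen with earlier results of these data known. Alternatives were DESeq2 1.42.0, RLE scaling, no filter, a mitochondrial limit of 5%, other resolutions, another seed, the 10 genes among the features, leaving out pups, and, chosen after seeing the data, no upper gene limit and removal of the highest 5% of doublet scores.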

Additional observations from a re-analysis of the deposited data

Results flagged for a closer look

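In 6 of 70 sets of 5 pups (the 10 genes in 7 groups of cells) 1 pup lay far from the others by Dixon's criterion, which chance alone meets in about 1 of 20 sets. Bgn was high in the articular chondrocyte-like cells of WT 1, at 6491 CPM against 4892 to 5246 in the other pups. Fmod was high in the Igfbp3/Col8a1-led cells of WT 1, at 4815 CPM against 3321 to 3721. Lum was high in the hypertrophic chondrocyte-like cells of WT 2, at 326 CPM against 273 to 288. Kera was high in the hypertrophic chondrocyte-like cells of mutant 4, at 15.9 CPM against 2.87 to 5.92, and that pup also had the most Kera over all its cells (245 CPM). In the osteoblast-like cells Epyc was high in WT 2 (91.6 CPM against 8.96 to 21.9) and Kera in mutant 5 (36.5 CPM against 0 to 5.02), in groups of 48 and 17 cells.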

How the results depend on the processing

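No paired analysis was possible because the WT and mutant pups share no replicate numbers. Contrasts between groups of cells already had the pup as a block. Of 812 log2 differences between groups of cells recomputed under alternatives, 716 kept their direction and side of the threshold, 40 lost the call, 14 gained one and 42 reversed. Of 400 recomputed for the values named by genotype label, 358 kept both, 9 gained a call and 33 reversed. Over all 10 genes in the 7 comparisons by label, 151 of 1020 recomputed values had the other sign and 11 were called. Differences past the threshold reversed with other clusterings, and differences that had not passed did so under other settings too. The proliferating list kept 0% of its main cells with seed 2, 26.0% at a resolution of 2.5 and 99.4% at 0.8, the perichondrial list 2.45% with the 10 genes among the features, 30.0% at 2.5 and 97.7% at 0.8, and the hypertrophic list 37.8% at 0.8. For other clusterings, here and in the next paragraph, a group name stands for the cells picked by the same marker list. These can be other cells than those of the named group. With seed 2 articular minus resting cells gave Kera -2.88, resting minus H2ac6/Sfrp5-led cells Dcn -0.70, Lum -0.41, Prelp 0.25, Ogn -0.035 and Omd -0.95, H2ac6/Sfrp5-led minus hypertrophic cells Lum 0.42, Epyc 0.14 and Chad 1.54, and tendon minus articular cells Fmod 0.11. By genotype seed 2 gave Bgn 0.014 in resting, Kera -0.057 in tendon and 0.061 in Igfbp3/Col8a1-led cells, and Fmod 0.16, Lum 0.048, Prelp 0.066, Ogn 0.25 and Chad 0.18 in H2ac6/Sfrp5-led cells. At 2.5 H2ac6/Sfrp5-led minus hypertrophic cells gave Lum 0.12, Prelp 0.25, Epyc 0.34 and Chad 0.42, tendon minus articular cells Fmod 0.034 and Epyc 0.55, Igfbp3/Col8a1-led minus resting cells Bgn -0.10 and Prelp 0.066, and osteoblast-like minus Igfbp3/Col8a1-led cells Lum 0.36 and Epyc -0.029. By genotype 2.5 gave Dcn 0.32, Bgn 0.095, Fmod 0.052, Lum 0.0067, Ogn 0.62, Omd 0.30 and Chad 0.21 in H2ac6/Sfrp5-led cells, and Lum 0.024 and Epyc 0.028 in Igfbp3/Col8a1-led cells. At 0.8 articular minus resting cells gave Bgn 0.043 and Kera -0.48, H2ac6/Sfrp5-led minus hypertrophic cells Prelp 0.27 and Epyc 0.032, tendon minus Igfbp3/Col8a1-led cells Chad 0.12, osteoblast-like minus Igfbp3/Col8a1-led cells Omd -0.071, and the genotype contrast in Igfbp3/Col8a1-led cells Lum 0.12. With the 10 genes among the features articular minus resting cells gave Bgn 0.071, Ogn 0.17 and Kera -0.33, resting minus H2ac6/Sfrp5-led cells Epyc 0.40, tendon minus Igfbp3/Col8a1-led cells Omd 0.21, Igfbp3/Col8a1-led minus resting cells Lum -0.10, osteoblast-like minus Igfbp3/Col8a1-led cells Dcn 0.034 and Lum 0.49, and the genotype contrast in Igfbp3/Col8a1-led cells Lum 0.088, Epyc 0.40 and Kera 0.11. In articular minus resting cells removal of the highest doublet scores gave Kera -0.66 and no filter Bgn 0.027. DESeq2 gave Epyc -0.017 in osteoblast-like minus Igfbp3/Col8a1-led cells, and the mitochondrial limit of 5% Omd -0.48 there and Kera 0.24 by genotype in Igfbp3/Col8a1-led cells. Without mutants 3 and 4 the genotype contrasts gave Kera -0.17 in H2ac6/Sfrp5-led and -0.97 in tendon cells, and Epyc 0.98 in Igfbp3/Col8a1-led cells. Leaving out 1 pup at a time, the ranges that crossed 0 were Lum -0.21 to 0.13, Omd -0.19 to 0.34 and Epyc -0.47 to 0.60 in osteoblast-like minus Igfbp3/Col8a1-led cells. By genotype they were Bgn -0.39 to 0.077 in articular and -0.25 to 0.022 in resting cells, positive in both without WT 1, Omd -2.25 to 0.39 in H2ac6/Sfrp5-led cells, Kera -0.67 to 0.36 in tendon cells, and Epyc -1.01 to 0.21 and Kera -0.53 to 0.18 in Igfbp3/Col8a1-led cells.

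By genotype, where edgeR called 0 genes, DESeq2 called 48 over all cells, 1 in articular, 8 in resting, 28 in H2ac6/Sfrp5-led (1 of them a member), 2 in hypertrophic, 19 in Igfbp3/Col8a1-led cells and 1 in the interaction. With no filter on low counts the calls were 53 in articular, 51 in resting (1 member), 220 in H2ac6/Sfrp5-led (5 members), 28 in tendon, 126 in Igfbp3/Col8a1-led cells and 11 in the interaction. Seed 2 gave 4 and 1 in the H2ac6/Sfrp5-led and Igfbp3/Col8a1-led comparisons, and removal of the highest doublet scores 1 in the latter. Without mutants 3 and 4 the calls were 1 in resting, 3 in H2ac6/Sfrp5-led, 91 in tendon (1 member) and 321 in Igfbp3/Col8a1-led cells (2 members). Leaving out 1 pup gave 0 to 6 genes over all cells, 0 to 7 in articular and in resting, 0 to 5 in H2ac6/Sfrp5-led, hypertrophic and tendon, and 0 to 34 (0 to 1 member) in Igfbp3/Col8a1-led cells. A mitochondrial limit of 5% left 2840 of 4320 calls between osteoblast-like and Igfbp3/Col8a1-led cells, and no filter left 3 of 6 members between H2ac6/Sfrp5-led and hypertrophic cells. The causes were not tested. The replicates are 2 and 3 pups, and low genes such as Kera and Omd outside their main groups rest on few UMIs.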
